A study of Mus musculus with 9 samples.

Results

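The comparison described here set MS1 cells that stably expressed the TAZ-CAMTA1 fusion against MS1 control cells, 6 of the 9 samples of the series, across all genes. MS1 is an endothelial line from the mouse pancreas, obtained from ATCC per the labels. The 3 control samples carried the lentiviral backbone pCDH-puro and the 3 TAZ-CAMTA1 samples carried pCDH-TAZ-CAMTA1, and the remaining 3 samples, labelled TAZ4A, appear only where a level is set beside them. Genes entered when at least 3 of the 6 libraries held 0.5 CPM or more, which 12979 of the 23744 genes in the GENCODE table did. A gene under 0.5 CPM in every control library could enter only if all 3 TAZ-CAMTA1 libraries passed. The filter then sets the separation of its groups. CPM is the deposited number of a gene's reads scaled to library size, and it is not corrected for gene length. No label tells if replicates are separate cultures or transductions, so p-values measure only the spread between these samples. Promoter, transgene species and clonal state were not given in the sources used here.

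The Hippo kinases hold back TAZ, a co-activator of transcription encoded by Wwtr1, which reaches DNA through the TEAD family of transcription factors. CAMTA1 is a transcription factor of the calmodulin-binding family. A gene fusion that links both is the hallmark of the vascular tumour epithelioid hemangioendothelioma, and it joins the TEAD-binding part of TAZ to the activating part of CAMTA1. Endothelial cells carry junction and receptor genes such as Pecam1, Cdh5, Kdr and Tek, and they answer inflammatory signals by making chemokines and adhesion molecules.

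Recovered reads numbered 22817562 to 35491338 in the 3 control libraries and 23763823 to 33766147 in the 3 TAZ-CAMTA1 libraries, and 3 reads in a library are worth 0.0867 to 0.134 CPM. TAZ-CAMTA1 replicate 2 stood apart. Its log2 correlation across genes with its group mates was 0.955 and 0.956, against 0.995 or more between the other libraries of a group. Ribosomal protein genes took 4.23% of its reads and 1.95% to 2.25% elsewhere, and the read-weighted median exonic length was 4163 nt, against 4799 to 4975 nt elsewhere. Tests of genes and counts of calls are therefore given with all 6 libraries and without that replicate, and single-library values name it where it stands apart. The words rose and fell are used where a gene's adjusted p with all 6 libraries was under 0.05 (limma-trend on log2(CPM + 0.5), Benjamini-Hochberg over the 12979 genes). A call "in every fit" passed in the same direction with all 6 libraries and in each of the 6 fits that left out 1 library. Fold changes, written with a standard error (n = 3 and 3), are TAZ-CAMTA1 minus control in log2(CPM + 0.5), which understates the change of low genes.

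With all 6 libraries 1453 genes rose, 11.2% of those tested, and 1033 fell, 7.96%. Without TAZ-CAMTA1 replicate 2 the calls numbered 3251 higher (25.0%) and 3752 lower (28.9%). In every fit 564 genes were called higher (4.35%) and 220 lower (1.70%). Of the 2486 genes called with all 6 libraries, 2484 were called in the same direction without replicate 2 and none turned sign, and the exceptions were Cyp4f41-ps and Pgk1. The 4519 genes called only without replicate 2 had a median absolute log2 fold change of 0.31, and 40 of them exceeded 1. Large changes were mostly rises. Among called genes 547 had a log2 fold change above 1 and 153 below -1, or 544 and 137 without replicate 2, and above 2 and below -2 they numbered 85 and 17, or 84 and 12. The samples of the 2 groups did not overlap at all 2486 called genes, and also not at 46.7% of all genes tested (without replicate 2, at 6973 of 7003 and 69.1%). The median over all genes tested was -0.04, and -0.03 without replicate 2. Protein-coding genes made up 1357 of the risers and 986 of the falls, while of 383 tested lincRNA and antisense genes 48 rose and 16 fell (without replicate 2, 3056 and 3594 protein-coding, 83 and 55 lincRNA and antisense). Counts in the gene lists below are to be read against the shares over all genes: 11.2% higher and 7.96% lower with all 6 libraries, 25.0% and 28.9% without replicate 2, 4.35% and 1.70% in every fit. By the authors' deposited table, 1844 of the tested genes were higher and 1408 lower at a false discovery rate under 0.05, and 2377 of the 2486 genes called here were among them in the same direction.

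**Figure D1:**
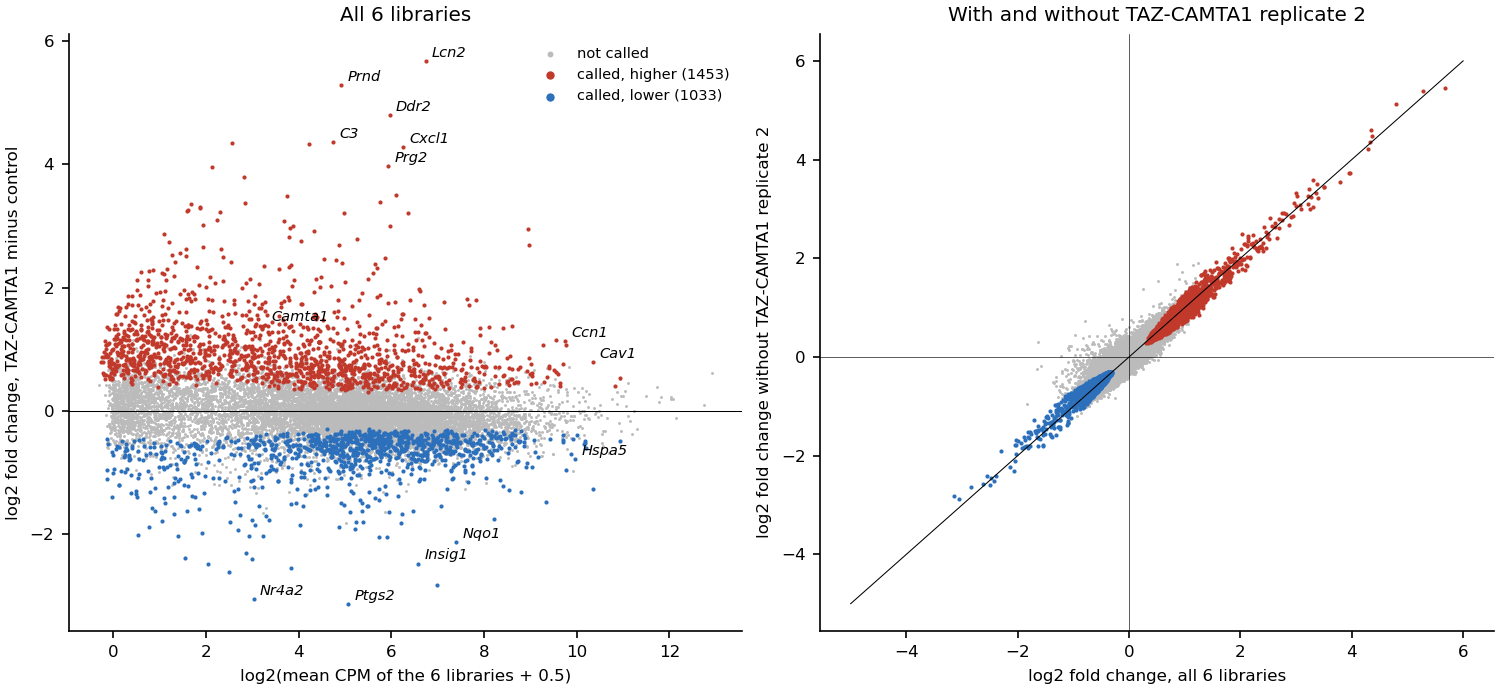
Left, log2 fold change (TAZ-CAMTA1 minus control, vertical) against the log2 mean CPM of the 6 libraries (horizontal) for 12979 genes, with 1453 called genes above and 1033 below. Right, the same fold change with all 6 libraries (horizontal) and without TAZ-CAMTA1 replicate 2 (vertical); called genes keep their sign, while grey points that are not called spread across the zero lines.

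Calls by exonic length differed with and without replicate 2, which had an excess of short genes. In the shortest of 8 equal bins of exonic length (53 to 1633 nt) the median gene of replicate 2 stood 0.48 above the control mean on the log2 scale, and in the longest bin (8940 nt or more) it stood 0.65 below. In replicates 1 and 3 every bin lay between -0.05 and 0.01. With all 6 libraries the share of genes called higher was 9.98% in the shortest bin, 14.6% in the second and 5.71% in the longest. Without replicate 2 it was 18.1%, 24.5% and 26.1%. The smallest share of rises among the 8 bins thus lay in the longest bin with all 6 and in the shortest without replicate 2. How far the length bias shaped single calls was not tested. Falls made up 1.98% of the shortest bin with all 6 and 19.1% without replicate 2.

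**Figure D2:**
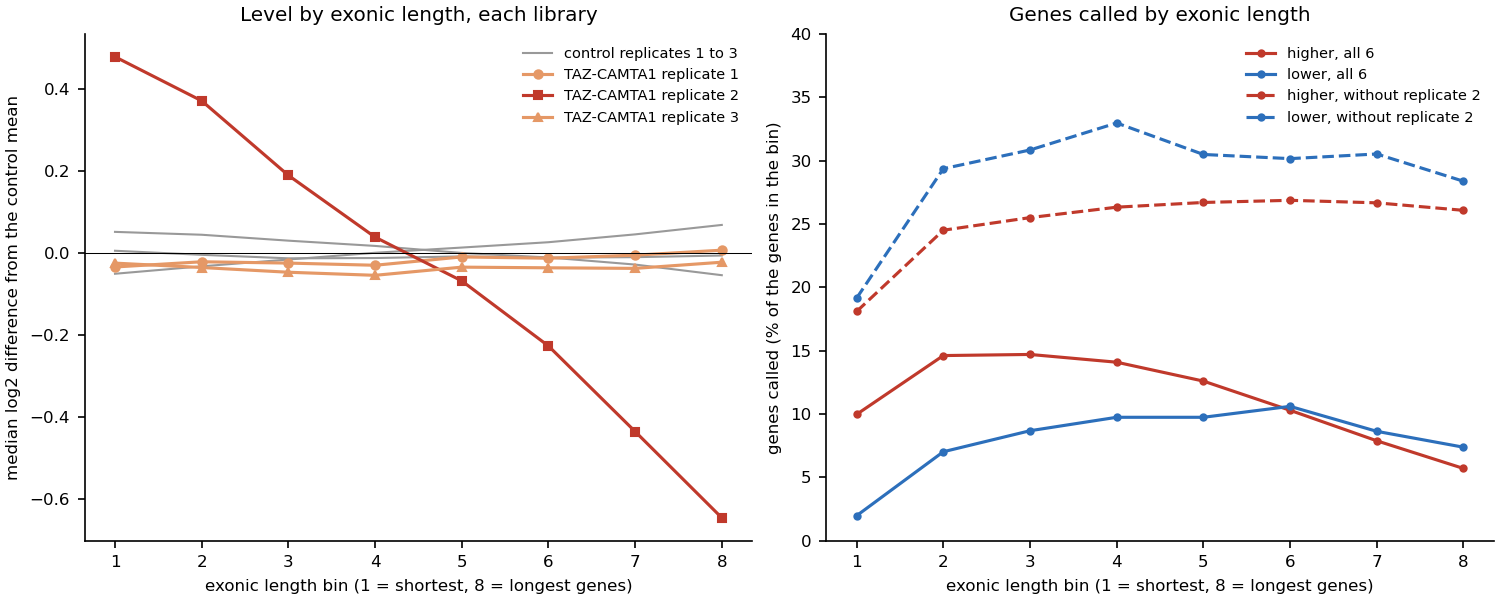
Left, the median log2 difference of each library from the control mean in 8 bins of exonic length; TAZ-CAMTA1 replicate 2 runs from 0.48 in the shortest bin to -0.65 in the longest, and the other libraries stay near 0. Right, the share of genes in each bin called higher or lower with all 6 libraries (solid) and without replicate 2 (dashed).

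Camta1 was examined first, as a check of the labels. The gene (ENSMUSG00000014592.15, mm10 chromosome 4, 150917322 to 151861876) stood at 5.804, 4.19 and 4.700 CPM in control and 13.8, 13.00 and 13.8 CPM in TAZ-CAMTA1 replicates 1 to 3. The groups did not overlap (log2 fold change 1.39 ± 0.14, limma adjusted p = 0.00179), and without replicate 2 the fold change was 1.42 ± 0.12, limma adjusted p = 1.0e-06. Reads spliced across introns between exons 9 and 24 of Camta1-211 (mm10 chromosome 4, 151062856 to 151143715), a stretch chosen with earlier results known, numbered 123, 51 and 62 in TAZ-CAMTA1 replicates 1 to 3. They numbered 0 in every control library, which allows up to 0.307 to 0.468 RPM (reads scaled to unique junction reads), counting error only. As a rate the TAZ-CAMTA1 libraries held 13.0, 6.86 and 9.42 RPM, a mean 9.77 above control (exact two-sided permutation p = 0.1, the smallest that 3 against 3 samples allow). Without replicate 2 the difference was 11.2 (exact permutation p = 0.2), with the groups again fully apart. As the stretch was chosen with earlier results known, these p-values reflect the number of samples and are no independent test of the labels. Wwtr1, which encodes TAZ itself, did not gain reads. It stood at 524, 519 and 552 CPM in control and 476, 311 and 469.9 CPM in TAZ-CAMTA1 (log2 fold change -0.37 ± 0.18, limma adjusted p = 0.207), and without replicate 2 at -0.17 ± 0.05, limma adjusted p = 0.0199. In the libraries labelled TAZ4A Wwtr1 stood at 314 ± 8.04 CPM (SD, n = 3), below the control mean of 532 ± 17.8 CPM (SD, n = 3). Whether a construct's own TAZ sequence would be counted on the mouse gene was not tested.

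Among the partners of TAZ, Yap1, its paralog, stood at 388, 391.6 and 398 CPM in control and 333, 226 and 320.1 CPM in TAZ-CAMTA1, and replicate 2 was the lowest library (log2 fold change -0.44 ± 0.16, limma adjusted p = 0.113). Without that replicate Yap1 was called lower (-0.27 ± 0.05, limma adjusted p = 0.0011). Of the 4 TEAD genes, which encode the DNA-binding partners, 1 rose. Tead3 went from 2.81, 2.69 and 2.94 to 4.299, 5.100 and 5.13 CPM (log2 fold change 0.69 ± 0.12, limma adjusted p = 0.0111), and without replicate 2 its log2 fold change was 0.65, although it missed the threshold in some fits without 1 control library. Tead1 was 160.1, 154 and 165 CPM in control and 179.7, 84.2 and 177 CPM in TAZ-CAMTA1, so that its direction rested on replicate 2 (log2 fold change -0.20 ± 0.30, limma adjusted p = 0.669; without it 0.16 ± 0.06, limma adjusted p = 0.0303). Tead2 (0.25 ± 0.14; without replicate 2 0.10) and Tead4 (-0.30 ± 0.15; -0.15) did not pass with or without it. Among 25 tested Hippo pathway components 4 rose and 0 fell, 9 and 4 without replicate 2, and 1 rose in every fit. As shares these were 16.0% higher beside 11.2% of all genes, 36.0% and 16.0% beside 25.0% and 28.9%, and 4.00% beside 4.35%. The gene called in every fit was Rassf2, a Ras-association family member that binds the Hippo kinases MST1 and MST2, at 11.6, 9.42 and 10.6 CPM in control and 32.2, 20.9 and 30.9 CPM in TAZ-CAMTA1 (log2 fold change 1.35 ± 0.19, limma adjusted p = 0.00562; without replicate 2 1.54). Of 17 genes of the CAMTA family, calmodulin and the ATAC histone acetyltransferase complex, 1 rose, Camta1 itself, and 1 fell, against 3 and 9 without replicate 2.

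The textbook targets of YAP/TAZ and TEAD divided. Of 22 tested, 8 rose and 1 fell with all 6 libraries, 9 and 5 without replicate 2, and 6 rose in every fit, with a median log2 fold change of 0.03 (0.15 without replicate 2). Ankrd1, an ankyrin repeat protein known from heart muscle, stood at 28.3, 31.6 and 30.4 CPM in control and 109, 104 and 97.7 CPM in TAZ-CAMTA1, a separation of more than the range within either group (log2 fold change 1.77 ± 0.10, limma adjusted p = 0.000259; without replicate 2 1.76). Ccn1, the matricellular protein CYR61, rose from 546, 551 and 531 to 1159.7, 1214 and 1181 CPM (log2 fold change 1.13 ± 0.08, limma adjusted p = 0.000625). Ccn3, another CCN family protein, went from 416, 376 and 413 to 851, 757 and 921 CPM (log2 fold change 1.07 ± 0.11, limma adjusted p = 0.00195). The fold changes without replicate 2 were 1.11 for Ccn1 and 1.14 for Ccn3. Ccn2 (CTGF), a widely used TAZ target gene of the same family, stood at 382, 399 and 376 CPM in control and 390.2, 395 and 386 CPM in TAZ-CAMTA1, and the groups overlapped (log2 fold change 0.02 ± 0.08, limma adjusted p = 0.901; without replicate 2 0.01). Axl, a receptor tyrosine kinase, was low in both groups, at 0.446, 0.289 and 0.243 CPM in control and 0.537, 0.574 and 0.626 CPM in TAZ-CAMTA1 (log2 fold change 0.39 ± 0.14, limma adjusted p = 0.0982; without replicate 2 0.40). Against the libraries labelled TAZ4A, where Ankrd1 reached 385 ± 2.15 CPM (SD, n = 3), TAZ-CAMTA1 was lower for Ankrd1 (log2 difference -1.89 ± 0.07, limma adjusted p = 4.6e-07) and Axl (-3.54 ± 0.11, limma adjusted p = 1.7e-07) and higher for Ccn3 (1.12 ± 0.09, limma adjusted p = 2.9e-05), while Ccn1 did not pass with all 9 libraries (-0.08 ± 0.06, limma adjusted p = 0.313) and did without replicate 2 (limma adjusted p = 0.0485). Without replicate 2 those 4 differences were -1.89, -3.54, 1.20 and -0.10. Over all genes 36.6% of 13346 were called between the 2 constructs, and 60.3% without replicate 2.

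Promoters were read from the RefSeq table of build GRCm38.p6 (250 bases before to 50 after the start), and only the stretch around the matches is printed. Ankrd1 and Ccn1, the risen targets with the highest fold changes over all 6 libraries, are shown. The TEAD motif CATTCC on either strand is in capitals. The motif lies 210 and 123 bases before the start of Ankrd1 and 103 bases before that of Ccn1, counted to the motif's first base in the direction of the gene.
Ankrd1, chr19:36119932-36120084, minus strand: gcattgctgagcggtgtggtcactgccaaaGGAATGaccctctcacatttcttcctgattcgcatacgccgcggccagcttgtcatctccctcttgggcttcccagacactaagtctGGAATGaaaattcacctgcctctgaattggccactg
Ccn1, chr3:145650053-145650118, minus strand: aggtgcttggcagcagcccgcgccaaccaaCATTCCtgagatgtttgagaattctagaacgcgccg
Of the 5 risen targets with a listed promoter 4 held the motif (Ajuba, Amotl2, Ankrd1 and Ccn1, but not Tgfb2), the same count as without replicate 2, and of 15 tested targets 8 did. Over the transcriptome the motif occurred in 17.9% of the promoters of risen genes (188 of 1052) and 15.5% of those that fell, 16.0% and 14.3% without replicate 2, 14.4% of all tested genes with a promoter and 16.6% of all 27025 gene symbols in the table. A match is a description of the letters in this window.

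The largest rises included many inflammatory and immune genes. By the rule for named genes (at least 5 CPM in the higher group and a call in every fit, ranked without replicate 2) the 12 were Lcn2, Prnd, Ddr2, Steap4, C3, Lcp2, Cxcl1, Prg2, Lyz2, Cp, C1s1 and Serpina3g. Lcn2, a protein that withholds iron from bacteria (ENSMUSG00000026822.10, mm10 chromosome 2, 32384633 to 32388252), stood at 4.51, 3.15 and 2.91 CPM in control and 166, 284 and 178 CPM in TAZ-CAMTA1. Replicate 2 was the highest library (log2 fold change 5.68 ± 0.25, limma adjusted p = 0.000164), and the fold change without it was 5.44. Prnd, which encodes the prion-like protein doppel (ENSMUSG00000027338.12, mm10 chromosome 2, 131950861 to 131956130), stood at 0.804, 1.07 and 1.18 CPM in control and 61.4, 50.9 and 63.5 CPM in TAZ-CAMTA1, this time lowest in replicate 2 (log2 fold change 5.28 ± 0.15, limma adjusted p = 5.0e-05; without replicate 2 5.38). Prnd overlaps another prion-family annotation, so its reads may be shared. Ddr2, a collagen-activated receptor tyrosine kinase, stood at 3.93, 3.47 and 3.55 CPM in control and 148, 71.9 and 142 CPM in TAZ-CAMTA1, with replicate 2 the lowest of the TAZ-CAMTA1 libraries (log2 fold change 4.80 ± 0.28, limma adjusted p = 0.000345; without it 5.14). C3, the central complement component, went from 1.92, 1.91 and 2.06 to 55.1, 42.7 and 53.98 CPM (log2 fold change 4.37 ± 0.13, limma adjusted p = 5.0e-05; without replicate 2 4.48). Lcp2, the adaptor SLP-76 of immune-receptor signalling, was nearly equal within each group, at 1.38, 1.16 and 1.24 CPM in control and 35.4, 33.8 and 35.6 CPM in TAZ-CAMTA1 (log2 fold change 4.33 ± 0.10, limma adjusted p = 5.0e-05; without replicate 2 4.35).

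Several of these genes are known from blood cells or liver. Prg2 encodes the major basic protein of eosinophil granules and stood at 6.79, 7.34 and 6.004 CPM in control and 97.8, 154 and 92.9 CPM in TAZ-CAMTA1 (log2 fold change 3.97 ± 0.21, limma adjusted p = 0.000259; without replicate 2 3.74). Lyz2, a lysozyme of macrophages and neutrophils, had 2 reads in the control libraries together and 6.48, 10.4 and 6.303 CPM in TAZ-CAMTA1 (ratio 352, 95% counting interval 97.1 to 2912, and 288 without replicate 2). Cp, the copper carrier ceruloplasmin, stood at 0.179, 0.116 and 0.152 CPM in control and 7.64, 3.82 and 6.93 CPM in TAZ-CAMTA1, and C1s1, a complement protease with a near copy that may share its reads, at 0.536, 0.925 and 0.849 CPM in control and 13.9, 10.6 and 13.5 CPM in TAZ-CAMTA1. Serpina3g, a protease inhibitor from a family of near copies, stood at 10.4, 10.7 and 10.8 CPM in control and 120.1, 136 and 121 CPM in TAZ-CAMTA1. Their log2 fold changes were 3.30 ± 0.25, 3.38 ± 0.18 and 3.50 ± 0.09 with all 6 libraries and 3.59, 3.50 and 3.44 without replicate 2 (limma adjusted p = 0.000787, 0.000259 and 5.0e-05 with all 6). Compared with the libraries labelled TAZ4A, Prnd, Lcp2, Prg2, Lyz2 and Serpina3g were higher in TAZ-CAMTA1 (log2 differences 2.68 ± 0.13, limma adjusted p = 2.2e-06 for Prnd and 3.20 ± 0.20, limma adjusted p = 8.4e-06 for Prg2, or 2.78 and 2.97 without replicate 2), and C3, Cxcl1, Cp and C1s1 were lower (-1.97 ± 0.10, limma adjusted p = 3.3e-06 for C3, -1.85 without replicate 2). Lcn2 did not pass that test with 9 libraries (-0.43 ± 0.21, limma adjusted p = 0.15) and did without replicate 2 (-0.67, limma adjusted p = 0.0039). Of the 12 genes 5 were higher and 4 lower than TAZ4A with 9 libraries, and 6 and 5 without replicate 2. Of all genes 36.6% were called in either direction, and 60.3% without replicate 2.

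**Figure D3:**
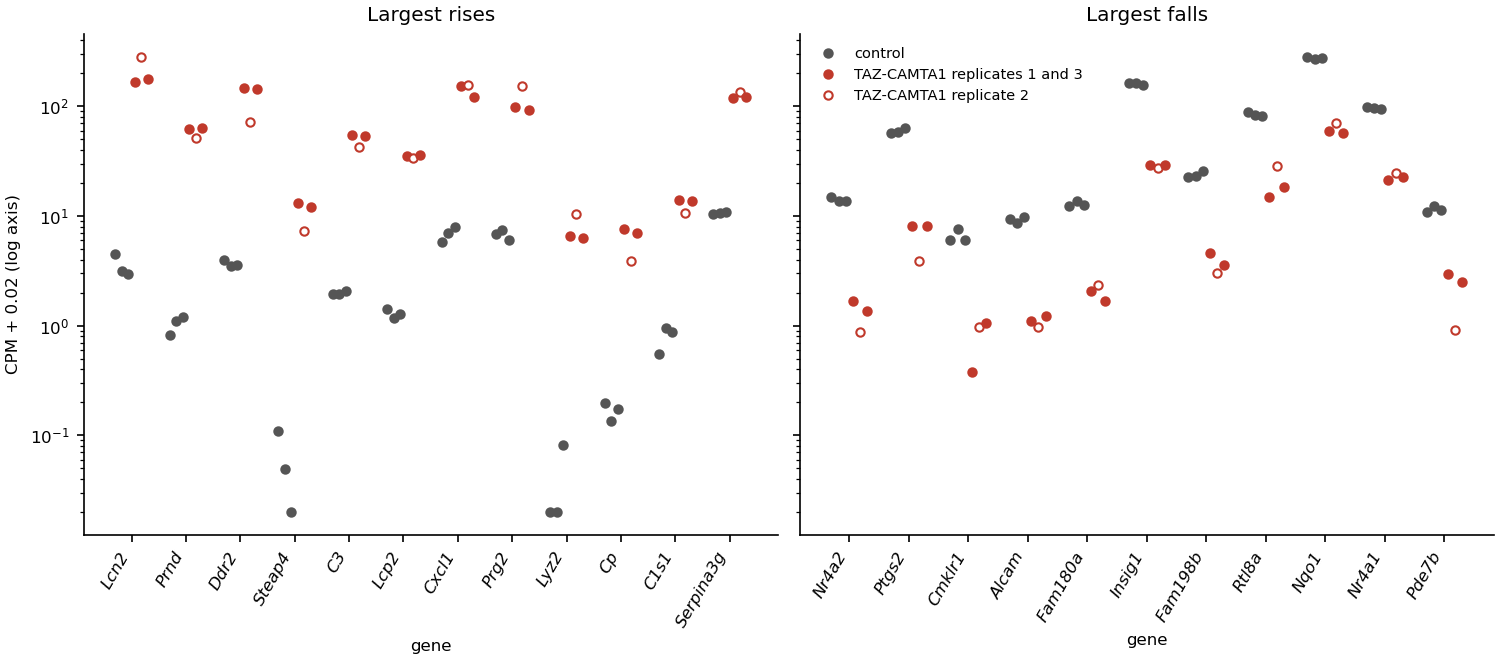
CPM + 0.02 on a log axis in each library for the largest rises (left) and the named largest falls (right); grey points are control, red points TAZ-CAMTA1, open red points TAZ-CAMTA1 replicate 2. The groups do not overlap at these genes, which were picked as calls in every fit, nor at 46.7% of all genes tested. The open points lie above or below their mates depending on the gene.

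Most NF-kB target genes and other inflammatory genes rose. NF-kB is a transcription factor that inflammatory receptors release into the nucleus, where it induces chemokines, cytokines and its own inhibitors. Of 32 tested members 20 rose and 2 fell with all 6 libraries, 27 and 2 without replicate 2, and 15 and 1 in every fit. As shares these were 62.5% and 6.25% with all 6 (11.2% and 7.96% of all genes), 84.4% and 6.25% without replicate 2 (25.0% and 28.9%) and 46.9% and 3.13% in every fit (4.35% and 1.70%). Their median log2 fold change was 0.96 (1.00 without replicate 2). The chemokine Cxcl1, which attracts neutrophils, stood at 5.804, 7.02 and 7.94 CPM in control and 153, 157 and 122 CPM in TAZ-CAMTA1 (log2 fold change 4.28 ± 0.16, limma adjusted p = 9.9e-05; without replicate 2 4.22). Inhibitors of NF-kB, secreted factors and an adhesion molecule were among the risers. Nfkbia, the inhibitor IkB alpha, and Nfkbie, its relative, had log2 fold changes of 0.66 ± 0.09 and 1.57 ± 0.16 (0.66 and 1.42 without replicate 2), the monocyte chemokine Ccl2 2.95 ± 0.12 (2.86) and the leukocyte receptor Icam1 1.03 ± 0.10 (0.97), all called in every fit. Of the NF-kB subunits Nfkb2 (0.55 ± 0.11; without replicate 2 0.49) and Relb (1.10 ± 0.21; 0.86) rose, while Rela did not pass with all 6 (0.34 ± 0.13) and was called higher without replicate 2 (0.21 ± 0.06, limma adjusted p = 0.00963). The 2 genes that fell were Ptgs2 and Selp, the leukocyte-rolling receptor P-selectin (-0.81 ± 0.14; without replicate 2 -0.68). Ptgs2, the prostaglandin-producing cyclooxygenase 2, stood at 57.01, 58.4 and 63.8 CPM in control and 8.15, 3.86 and 8.01 CPM in TAZ-CAMTA1, the reverse of the chemokines (log2 fold change -3.14 ± 0.28, limma adjusted p = 0.00132; without replicate 2 -2.81).

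Part of the promoter of Cxcl1 is shown with matches to GGNNTTTCC, a shortened form of the NF-kB motif, on either strand in capitals, 89 and 70 bases before the start.
Cxcl1, chr5:90891126-90891213, plus strand: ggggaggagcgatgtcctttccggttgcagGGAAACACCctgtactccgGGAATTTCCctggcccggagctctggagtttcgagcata
Of 15 risen members with a promoter 10 held such a match, as did 14 of the 24 tested members, and without replicate 2 it was 12 of 20 called higher. Among all risen genes 9.89% held it and among those that fell 7.99% (8.77% and 6.89% without replicate 2), among tested genes 7.47% and over all promoters 6.62%.

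Some genes nearly silent in control were detected in every TAZ-CAMTA1 library. In 12 genes the 3 control libraries held at most 3 reads together while each TAZ-CAMTA1 library held 0.5 CPM or more, a count made after values were seen. The ratios and intervals, here and for Lyz2 above, use the same reads, pooled over the libraries of a group. High ratios therefore follow from the choice of genes, and the intervals are a description and no test. They were Steap4, Lyz2, Slpi, Serpina3f, Slc11a1, Gm773, Csf2, Cxcl5, Csf2rb, Slamf9, Serpinb12 and Ccdc184. Steap4, a metalloreductase, had 3 control reads and 12.99, 7.203 and 12.1 CPM in TAZ-CAMTA1 (ratio 321, 95% counting interval 110 to 1560, and 379 without replicate 2). Slpi, a secreted protease inhibitor, had 1 control read and 2.84, 4.303 and 2.71 CPM (ratio 299, interval 53.2 to 11843, and 251 without replicate 2). Slamf9, an immune cell surface protein, had 0 reads in control. With control set to 3 reads in each library it stood at least 11.1-fold higher, or 8.45-fold without replicate 2. Csf2rb, the shared receptor chain for the cytokine GM-CSF, and its ligand gene Csf2 both belonged here, with 2 control reads each. Csf2rb stood at 1.02, 1.08 and 1.13 CPM in TAZ-CAMTA1 (ratio 48.1, interval 13.0 to 403, and 47.8 without replicate 2). In the other direction only Chrdl1, a secreted BMP antagonist, met the mirrored count, with 0.759, 0.983 and 1.03 CPM in control and 3 reads in TAZ-CAMTA1 (85 reads against 3, ratio 28.0, interval 9.25 to 138, control over TAZ-CAMTA1, and 27.1 without replicate 2).

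Among interferon response genes more fell than rose. Interferon-stimulated genes encode antiviral proteins that cells make after interferon binds its receptors. Of 32 tested members 4 rose and 12 fell, 8 and 19 without replicate 2, and 2 and 5 in every fit, with a median of -0.39 (-0.24 without replicate 2). Ifi44 fell from 22.7, 26.6 and 25.7 to 6.24, 5.96 and 7.47 CPM (log2 fold change -1.86 ± 0.13, limma adjusted p = 0.000481; without replicate 2 -1.80). Ifit1, which binds foreign RNA ends, stood at 64.7, 68.99 and 63.3 CPM in control and 22.6, 20.7 and 23.1 CPM in TAZ-CAMTA1, a gap well outside the range of either group (log2 fold change -1.55 ± 0.09, limma adjusted p = 0.000345; without replicate 2 -1.50), and its relative Ifit3 fell by less (log2 fold change -0.96 ± 0.13, limma adjusted p = 0.00534; without replicate 2 -1.08), though the Ifit genes are near copies and may share reads. The members that rose were Gbp2 (0.90 ± 0.09), the transcription factor Irf1 (0.65 ± 0.10) and the antigen-processing genes Psmb9 (0.94 ± 0.22) and Tap1 (0.50 ± 0.09), or 0.87, 0.64, 0.72 and 0.46 without replicate 2. Usp18, which limits interferon signalling, did not pass with (-0.25 ± 0.11) or without replicate 2 (-0.22), and Isg15 passed only without it (-0.77). In the libraries labelled TAZ4A Ifit1 stood at 139.8 ± 3.74 CPM (SD, n = 3), and 30 of the 32 members were lower in TAZ-CAMTA1 than in TAZ4A with 9 libraries (31 without replicate 2) and 1 was higher. Over all genes 36.6% were called between the 2 constructs in either direction, and 60.3% without replicate 2. Part of the promoter of Ifit1 is shown with matches to AAANNGAAA, the core of the interferon response element, on either strand in capitals, 104 and 85 bases before the start.
Ifit1, chr19:34640755-34640842, plus strand: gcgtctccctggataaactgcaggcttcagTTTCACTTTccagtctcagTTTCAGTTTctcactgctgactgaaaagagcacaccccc
Of the 12 fallen members 8 held a match (11 of 17 called lower without replicate 2), and of the 26 tested members with a promoter 16 did. Among all risen genes 10.1% held one and among those that fell 9.36% (10.1% and 8.84% without replicate 2), among tested genes 9.33% and over all promoters 12.1%.

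The largest falls were of another kind. The 12 that the rule gave included Nr4a2, Ptgs2, Cmklr1, Alcam, Fam180a, Insig1, Fam198b, Rtl8a, Nqo1, Nr4a1 and Pde7b. Nr4a2, an orphan nuclear receptor induced by many signals (ENSMUSG00000026826.9, mm10 chromosome 2, 57106830 to 57124003), stood at 14.96, 13.6 and 13.7 CPM in control and 1.64, 0.861 and 1.34 CPM in TAZ-CAMTA1, with replicate 2 lowest (log2 fold change -3.06 ± 0.18, limma adjusted p = 0.000367; without it -2.88). Its relative Nr4a1 stood at 97.8, 96.2 and 93.9 CPM in control and 21.4, 24.6 and 22.5 CPM in TAZ-CAMTA1, all 3 TAZ-CAMTA1 libraries close together (log2 fold change -2.05 ± 0.09, limma adjusted p = 0.000164; without replicate 2 -2.10). Alcam, a cell adhesion molecule, stood at 9.38, 8.67 and 9.67 CPM in control and 1.07, 0.956 and 1.21 CPM in TAZ-CAMTA1 (log2 fold change -2.63 ± 0.12, limma adjusted p = 0.000163; without replicate 2 -2.57). Cmklr1, the receptor of the chemoattractant chemerin, stood at 6.03, 7.54 and 6.03 CPM in control and 0.358, 0.956 and 1.04 CPM in TAZ-CAMTA1, with replicate 1 the lowest here (log2 fold change -2.49 ± 0.25, limma adjusted p = 0.00193; without replicate 2 -2.60). Pde7b, a phosphodiesterase of cyclic AMP, went from 10.9, 12.2 and 11.4 to 2.96, 0.892 and 2.46 CPM, and replicate 2 enlarged the fall (log2 fold change -2.31 ± 0.34, limma adjusted p = 0.0068; without it -1.91). Rtl8a, of a retrotransposon-derived family whose near copies may share reads, fell by less with replicate 2 (-2.06 ± 0.23) than without it (-2.31). The log2 fold changes of Fam180a and Fam198b were -2.42 ± 0.13 and -2.55 ± 0.16, or -2.50 and -2.42 without replicate 2. Against the libraries labelled TAZ4A 10 of the 12 were lower in TAZ-CAMTA1 (11 without replicate 2) and Rtl8a was higher (0.82 ± 0.21, limma adjusted p = 0.0156; 0.56 without replicate 2). The share of all genes called in either direction was 36.6%, and 60.3% without replicate 2. Nqo1 did not pass with 9 libraries (-0.06 ± 0.09, limma adjusted p = 0.631) and did without replicate 2 (-0.15, limma adjusted p = 0.0156).

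Cholesterol genes fell without a single rise. Cells make cholesterol through the mevalonate pathway and also import it, and the transcription factor SREBP2, the product of Srebf2, drives both sets when sterols are low. Of 23 tested members 14 fell and 0 rose, 20 and 0 without replicate 2, and 8 and 0 in every fit, with a median log2 fold change of -0.85 (-0.64 without replicate 2). Insig1, the sterol-sensing anchor of SREBP, stood at 164, 164 and 158 CPM in control and 28.8, 27.5 and 29.3 CPM in TAZ-CAMTA1, with hardly any spread within a group (log2 fold change -2.48 ± 0.09, limma adjusted p = 6.6e-05; without replicate 2 -2.46). Srebf2 itself changed by -0.71 ± 0.12 (-0.63 without replicate 2), a call not made in every fit. The fatty acid synthase Fasn, outside the list and named after its value was seen, went from 479.5, 369 and 491 to 221, 168 and 226 CPM (log2 fold change -1.12 ± 0.17, limma adjusted p = 0.00783; without replicate 2 -0.98).

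Glycolysis and hypoxia genes rose without a single fall. Low oxygen stabilises the factor HIF-1, which turns on glucose transport, glycolytic enzymes and the oxygen-sensing prolyl hydroxylases. Of 29 tested members 16 rose and 0 fell, 21 and 0 without replicate 2, and 11 and 0 in every fit, with a median of 0.64 (0.55 without replicate 2). Bnip3, a mitophagy receptor, stood at 16.3, 18.2 and 16.8 CPM in control and 100.9, 106 and 87.4 CPM in TAZ-CAMTA1 (log2 fold change 2.48 ± 0.11, limma adjusted p = 0.000153; without replicate 2 2.43). The glucose transporter Slc2a1 stood at 479, 474 and 454 CPM in control and 1022, 1090.3 and 1012 CPM in TAZ-CAMTA1 (log2 fold change 1.15 ± 0.09, limma adjusted p = 0.000696; without replicate 2 1.12). Hexokinase 2, Hk2, and the lactate exporter Slc16a3 had log2 fold changes of 1.69 ± 0.16 and 1.60 ± 0.15 (1.83 and 1.44 without replicate 2). Replicate 2 was the lowest of its group for Hk2 and the highest for Slc16a3. Pgk1 rose with all 6 (0.98 ± 0.27) but not without replicate 2 (0.86, limma adjusted p = 0.141), where replicate 1 at 60.2 CPM was near the highest control library at 55.1 CPM. Hif1a, which encodes the oxygen-regulated subunit, stood at 554, 574 and 590.3 CPM in control and 546, 319 and 536 CPM in TAZ-CAMTA1 and did not pass (log2 fold change -0.34 ± 0.22, limma adjusted p = 0.325; without replicate 2 -0.08). The core of the hypoxia response element, ACGTG on either strand, occurred in the promoters of 13 of 16 risen members and of 19 of 28 tested members, and without replicate 2 in 14 of 20 called higher. It occurred in 27.0% of all risen and 34.5% of all fallen genes (27.1% and 32.5% without replicate 2), 29.6% of tested genes and 21.8% of the table.

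**Figure D4:**
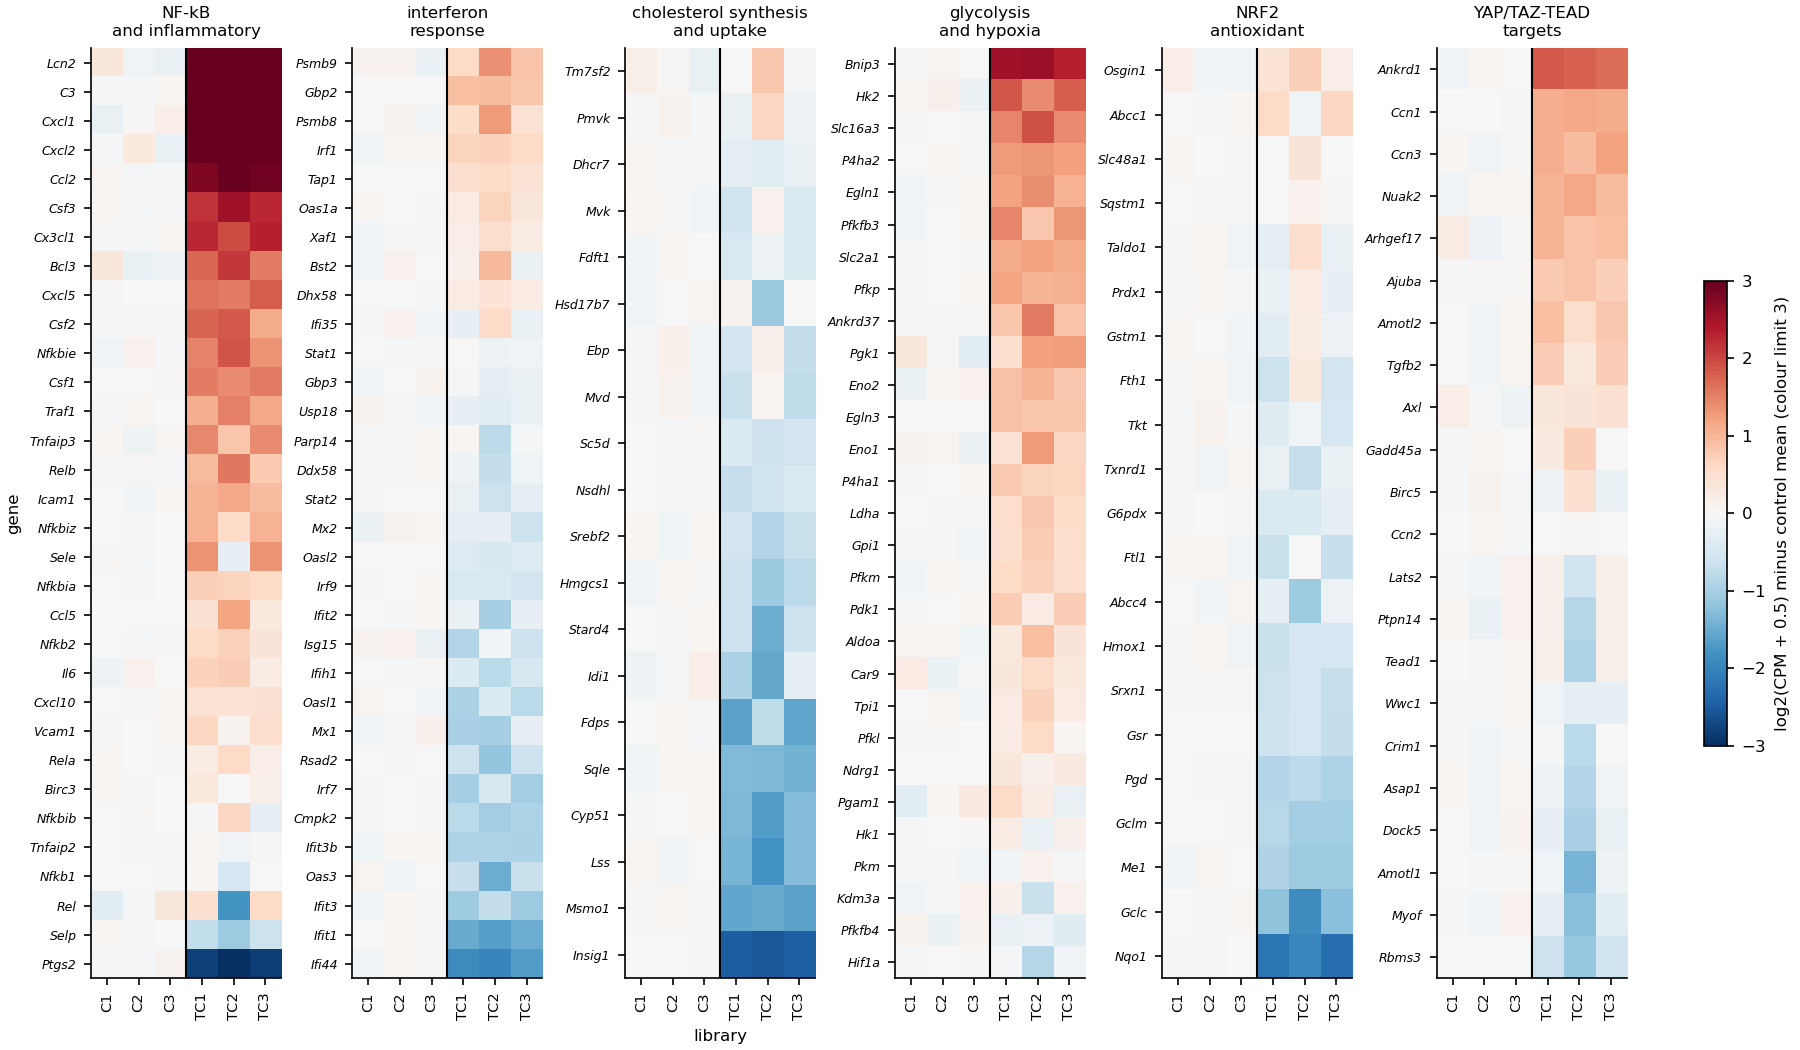
Colour shows log2(CPM + 0.5) minus the control mean for tested members of 6 gene lists (rows) in control libraries C1 to C3 and TAZ-CAMTA1 libraries TC1 to TC3 (columns), with colours limited at 3. Inflammatory and glycolysis genes are red and cholesterol and antioxidant genes blue in all 3 TAZ-CAMTA1 libraries for the genes at the ends of each list that were called.

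Some antioxidant and endoplasmic reticulum stress genes fell. NRF2 induces enzymes that make glutathione and NADPH. Of 21 tested members of that list 9 fell and 0 rose, 16 and 2 without replicate 2, and 5 and 0 in every fit, with a median of -0.39 (-0.43 without replicate 2). Nqo1, a quinone reductase and a textbook NRF2 target, stood at 281, 269 and 277 CPM in control and 59.7, 70.5 and 57.1 CPM in TAZ-CAMTA1 (log2 fold change -2.14 ± 0.11, limma adjusted p = 0.000239; without replicate 2 -2.23). Gclc, the catalytic subunit of glutathione synthesis, stood at 77.1, 74.4 and 81.03 CPM in control and 33.1, 20.5 and 32.2 CPM in TAZ-CAMTA1 (log2 fold change -1.45 ± 0.19, limma adjusted p = 0.00499; without replicate 2 -1.23), and malic enzyme Me1 changed by -1.02 ± 0.10 (-0.99). Of 23 ATF4 and unfolded protein response genes 9 fell and 0 rose with all 6 and 22 and 0 without replicate 2, but 2 fell in every fit. These were Phgdh, the first enzyme of serine synthesis, at 80.1, 72.2 and 63.5 CPM in control and 22.4, 32.7 and 25.6 CPM in TAZ-CAMTA1 (log2 fold change -1.41 ± 0.17, limma adjusted p = 0.00324; without replicate 2 -1.56), and the chaperone Hspa5 at 1175, 1343 and 1303 CPM in control and 759, 769 and 683 CPM in TAZ-CAMTA1 (log2 fold change -0.79 ± 0.10, limma adjusted p = 0.00413; without replicate 2 -0.82). Atf4 itself passed only without replicate 2 (-0.31 ± 0.07, limma adjusted p = 0.00273). Of 30 lysosome and V-ATPase genes 1 rose and 4 fell, or 4 and 14 without replicate 2, and Gpnmb, a lysosomal glycoprotein, fell in every fit (-1.11 ± 0.10; -1.02).

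The endothelial markers Pecam1, Cdh5, Kdr, Tek, Tie1 and Erg, chosen after values were seen, were abundant in every library. Pecam1 stood at 3288, 3301 and 3373 CPM in control and 4267, 3262 and 4197 CPM in TAZ-CAMTA1, Cdh5 at 1535, 1329 and 1614 CPM in control and 1669, 1013 and 1689 CPM in TAZ-CAMTA1 and Tie1 at 2266, 2284 and 2238 CPM in control and 2239.5, 2083 and 2102 CPM in TAZ-CAMTA1. None of these 6 genes passed the test with all 6 libraries. Replicate 2 was the lowest library of its group at each of them. Pecam1 (0.35 ± 0.05, limma adjusted p = 9.6e-05), Tek (0.62 ± 0.05, limma adjusted p = 1.2e-06) and Erg (-0.16 ± 0.05, limma adjusted p = 0.0244) passed without replicate 2, the first 2 higher and the last lower, while Cdh5 (0.17), Kdr (0.02) and Tie1 (-0.06) did not. Of the 32 listed endothelial genes 29 passed the filter, Cldn5 and Aplnr were below it and Sox17 was not analysed here. Cldn5, the endothelial tight junction claudin, was at or near 0, with 0, 0.0289 and 0 CPM in control and 0.0299, 0 and 0.0835 CPM in TAZ-CAMTA1. Of the 29 tested 6 rose and 3 fell, 12 and 9 without replicate 2, and 2 and 2 in every fit. Tspan18, an endothelial tetraspanin, stood at 4.15, 3.27 and 3.94 CPM in control and 31.4, 22.7 and 31.7 CPM in TAZ-CAMTA1 (log2 fold change 2.75 ± 0.17, limma adjusted p = 0.000381; without replicate 2 2.91), and the transcription factor Sox7 at 149, 133 and 147 CPM in control and 355, 291 and 365 CPM in TAZ-CAMTA1 (log2 fold change 1.23 ± 0.12, limma adjusted p = 0.00184). Clec14a, a lectin of vessel walls, stood at 94.96, 104 and 106 CPM in control and 41.4, 36.9 and 37.5 CPM in TAZ-CAMTA1 (log2 fold change -1.38 ± 0.10, limma adjusted p = 0.000535), and the ETS factor Fli1 changed by -0.59 ± 0.08. The fold changes without replicate 2 were 1.33, -1.35 and -0.59. Against the libraries labelled TAZ4A 18 of the 29 members were higher in TAZ-CAMTA1 and 1 lower (25 and 1 without replicate 2). The share of all genes called there in either direction was 36.6%, or 60.3% without replicate 2. In bulk RNA fewer cells of a kind and less RNA per cell cannot be told apart.

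Most markers of other cell types fell below the filter, and the part of other cells in any result was not tested. Of 10 leukocyte markers 7 were in the table and 2 passed the filter, where Lyz2 rose while Cd68 did not pass (0.17 ± 0.17; without replicate 2 0.01) and Ptprc, the pan-leukocyte marker CD45, stayed below the filter. The summed level of the 7 was 436.4 to 503.4 CPM in control and 447.9 to 678.9 CPM in TAZ-CAMTA1, nearly all of it Cd68. Of 9 fibroblast markers 4 were tested and 3 rose (Pdgfra, Col1a1 and Col3a1), with Dcn, Lum, Dpt, Fap and Thy1 below the filter, and their sum went from 3.99 to 5.54 CPM in control to 8.83 to 14.1 CPM. Dcn and Dpt had no read in control, and Lum and Dpt none in TAZ-CAMTA1. Among 10 pericyte and smooth muscle markers 3 were tested and 2 rose, among them Pdgfrb (0.91 ± 0.14; without replicate 2 0.98). Acta2, Des and Myh11 were below the filter, and the sum was 158.0 to 165.7 CPM in control and 216.5 to 298.8 CPM in TAZ-CAMTA1. Of 12 epithelial and pancreatic markers 3 were tested and Cldn4, a tight junction claudin, rose from 3.88, 3.93 and 3.64 to 12.1, 15.4 and 12.5 CPM (log2 fold change 1.67 ± 0.13, limma adjusted p = 0.000696; without replicate 2 1.57), while Cdh1 stayed below the filter and the sum went from 23.97 to 27.2 CPM in control to 32.6 to 62.4 CPM. Of 8 erythroid and platelet markers 3 were tested and Pf4, platelet factor 4, stood at 0.625, 0.405 and 0.546 CPM in control and 4.66, 8.67 and 5.18 CPM in TAZ-CAMTA1 (log2 fold change 2.66 ± 0.24, limma adjusted p = 0.00144; without replicate 2 2.41), with Gata1 and Klf1 below the filter and a sum of 7.73 to 8.67 CPM in control and 14.3 to 24.2 CPM in TAZ-CAMTA1. Without replicate 2 the members called higher were 1 leukocyte, 3 fibroblast, 3 pericyte and smooth muscle, 2 epithelial and pancreatic and 2 erythroid and platelet markers, and none was lower. The sums are ranges that include replicate 2, the highest library for Lyz2, Cldn4 and Pf4, and were not taken without it. Their upper ends may therefore rest on that library.

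Secreted growth factors and vascular signals rose more often than they fell. Of 15 angiogenic ligands and receptors 7 rose and 0 fell, 10 and 3 without replicate 2, and 3 and 0 in every fit. Vegfa, the main endothelial growth factor, stood at 11.03, 11.4 and 12.5 CPM in control and 37.5, 27.4 and 35.9 CPM in TAZ-CAMTA1 (log2 fold change 1.48 ± 0.14, limma adjusted p = 0.00182; without replicate 2 1.62). The platelet-derived growth factors Pdgfa and Pdgfb, which recruit mural cells, stood at 30.05, 31.4 and 30.1 CPM in control and 79.4, 98.8 and 77.1 CPM in TAZ-CAMTA1 and at 105, 100.7 and 97.5 CPM in control and 213, 219 and 204 CPM in TAZ-CAMTA1, respectively, with no overlap (1.46 ± 0.12 and 1.06 ± 0.09; without replicate 2 1.34 and 1.04). The chemokine receptor Cxcr4 did not pass (-0.21 ± 0.11; -0.17 without replicate 2). Of 23 axon guidance genes, many of which also steer vessels, 10 rose and 0 fell, 14 and 2 without replicate 2, and 6 and 0 in every fit. Semaphorin 7A, Sema7a, stood at 3.04, 2.803 and 2.97 CPM in control and 23.3, 21.9 and 26.6 CPM in TAZ-CAMTA1 (log2 fold change 2.83 ± 0.11, limma adjusted p = 9.9e-05; without replicate 2 2.89). Sema3g (1.65 ± 0.14; 1.74) and the netrin Ntn1 (0.90 ± 0.12; 0.85) were low. Both passed the filter of 0.5 CPM only through the TAZ-CAMTA1 libraries, so the separation of their groups was set by the filter. Of 13 Notch and arterial genes 2 rose and 1 fell, 6 and 3 without replicate 2, and none was called in every fit.

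Matrix genes that were called mostly rose. Of 33 collagen and matrix genes 11 rose and 1 fell, 25 and 3 without replicate 2, and 5 and 1 in every fit, with a median of 0.45 (0.56 without replicate 2). These are long transcripts, with a median exonic length of 6943 nt, and replicate 2 read low on long genes. Nid2, a basement membrane nidogen, stood at 0.804, 0.925 and 0.9401 CPM in control and 9.46, 7.94 and 6.93 CPM in TAZ-CAMTA1 (log2 fold change 2.62 ± 0.14, limma adjusted p = 0.000259; without replicate 2 2.63). Col18a1, the precursor of endostatin, and Col6a1 had log2 fold changes of 1.99 ± 0.17 and 1.49 ± 0.12 (2.01 and 1.58 without replicate 2). Sparcl1, a matricellular protein, fell from 139, 143 and 147 to 69.00, 58.8 and 69.6 CPM (log2 fold change -1.12 ± 0.10, limma adjusted p = 0.00147; without replicate 2 -1.04). Of 25 integrin and focal adhesion genes 4 rose and 0 fell, 10 and 5 without replicate 2, and Itgb5 (2.06 ± 0.12; 1.99) and Itga9 (1.80 ± 0.14; 1.82) rose in every fit. Of 16 mesenchymal and contractile genes 4 rose and 1 fell, 11 and 2 without replicate 2. The transcription factors of epithelial-mesenchymal transition parted, with Snai1 at 4.598, 4.22 and 3.24 CPM in control and 8.96, 13.1 and 9.39 CPM in TAZ-CAMTA1 (log2 fold change 1.27 ± 0.19, limma adjusted p = 0.00765) and Snai2 at 8.93, 10.9 and 8.76 CPM in control and 5.34, 5.04 and 5.43 CPM in TAZ-CAMTA1 (log2 fold change -0.79 ± 0.12, limma adjusted p = 0.00759), or 1.11 and -0.76 without replicate 2.

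In the TGF-beta and BMP pathways 5 of 26 tested genes rose and 4 fell, 11 and 9 without replicate 2, and 3 and 3 in every fit. As shares these were 19.2% and 15.4% beside 11.2% and 7.96% of all genes, 42.3% and 34.6% beside 25.0% and 28.9%, and 11.5% and 11.5% beside 4.35% and 1.70%, so the list had no common direction. The latent TGF-beta binding proteins went in opposite directions, Ltbp2 at 0.313, 0.116 and 0.455 CPM in control and 4.27, 3.63 and 4.51 CPM in TAZ-CAMTA1 and Ltbp1 at 13.1, 11.1 and 10.98 CPM in control and 2.84, 1.59 and 3.298 CPM in TAZ-CAMTA1. Their log2 fold changes were 2.56 ± 0.19 and -2.03 ± 0.24, or 2.64 and -1.77 without replicate 2. The inhibitors of DNA binding also parted, with Id3 changing by 1.62 ± 0.20 and Id2 by -0.77 ± 0.11 (1.42 and -0.84), and the ligand Tgfb3 fell (-0.76 ± 0.10; -0.71).

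Immediate-early and MAPK feedback genes were split within the list. Of 28 tested 8 rose and 8 fell, 9 and 15 without replicate 2, and 4 and 5 in every fit. Egr1, an early growth response factor, stood at 208, 225 and 217 CPM in control and 615, 523 and 553 CPM in TAZ-CAMTA1 (log2 fold change 1.37 ± 0.10, limma adjusted p = 0.000604; without replicate 2 1.43). Ier3, an anti-apoptotic early gene, stood at 86.6, 99.4 and 97.5 CPM in control and 329, 364 and 248 CPM in TAZ-CAMTA1 (log2 fold change 1.71 ± 0.16, limma adjusted p = 0.00168; without replicate 2 1.59), and the phosphatase Dusp2 changed by 1.26 ± 0.17 (1.08). In contrast the AP-1 subunit Fosb stood at 26.6, 21.9 and 25.8 CPM in control and 8.18, 6.66 and 9.68 CPM in TAZ-CAMTA1 (log2 fold change -1.55 ± 0.16, limma adjusted p = 0.00208; without replicate 2 -1.42), beside the falls of Nr4a1 and Nr4a2 given above. Jun, another AP-1 subunit, rose with all 6 (log2 fold change 0.52 ± 0.11, limma adjusted p = 0.0221; without replicate 2 0.47) but not in every fit.

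DNA replication and mitosis genes that were called with all 6 libraries fell, with small median changes. More were called lower without replicate 2, as over all genes, where lower calls went from 7.96% to 28.9%. Of 37 DNA replication and nucleotide synthesis genes 6 fell and 0 rose, 27 and 0 without replicate 2, and none was called in every fit. The shares called lower were 16.2% with all 6 and 73.0% without replicate 2. Their median log2 fold change was -0.22 with all 6 and -0.24 without replicate 2. Of 41 mitosis and spindle genes 11 fell and 0 rose, 32 and 1 without replicate 2 (26.8% and 78.0% lower), with medians of -0.41 and -0.31. Only the checkpoint gene Mad2l1 was called in every fit, at 108, 115 and 117 CPM in control and 73.9, 70.8 and 66.6 CPM in TAZ-CAMTA1 (log2 fold change -0.68 ± 0.09, limma adjusted p = 0.00494; without replicate 2 -0.69). The proliferation marker Mki67 stood at 492, 488 and 583 CPM in control and 522, 299 and 493 CPM in TAZ-CAMTA1, with the groups overlapping (log2 fold change -0.29 ± 0.23, limma adjusted p = 0.417; without replicate 2 -0.03). Of 26 G1 cyclin and inhibitor genes 2 rose and 2 fell, and 10 and 10 were called without replicate 2. As shares these were 7.69% and 7.69% beside 11.2% and 7.96% of all genes, and 38.5% and 38.5% beside 25.0% and 28.9%. With all 6 libraries the G1 list was thus called no more often than all genes. Mycn, a MYC family factor, rose from 8.48, 8.44 and 8.55 to 24.3, 23.5 and 22.00 CPM in every fit (log2 fold change 1.40 ± 0.09, limma adjusted p = 0.000435; without replicate 2 1.39). Of 19 p53 targets 2 rose and 4 fell, 4 and 8 without replicate 2, and the risers Pmaip1 (1.31 ± 0.13; 1.37) and Btg2 (0.93 ± 0.09; 0.97) were called in every fit. The p53 shares were 10.5% and 21.1% beside 11.2% and 7.96%, and 21.1% and 42.1% beside 25.0% and 28.9% without replicate 2.

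Lists of short housekeeping transcripts had no calls with all 6 libraries. The 47 cytosolic ribosomal protein genes, median exonic length 1830 nt, had a median log2 fold change of 0.33 with all 6 libraries and 0.04 without replicate 2, with 0 calls in place of 4 higher and 2 lower. The 36 respiratory chain subunits had medians of 0.03 with all 6 and -0.17 without replicate 2. None was called with all 6, while 22 were called lower without replicate 2. That was 61.1% of the list beside 28.9% of all genes, so its lack of calls with all 6 depended on replicate 2. At single genes the largest shifts were at Atp2b4, Cd33 and Glis3 among risers and Pkhd1l1, Slc39a10 and Pde7b among falls. Atp2b4, a calcium pump of the plasma membrane, stood at 4.91, 4.77 and 4.85 CPM in control and 29.98, 10.96 and 29.2 CPM in TAZ-CAMTA1, so that replicate 2 lay nearer to control than to its mates (log2 fold change 2.03 ± 0.38, limma adjusted p = 0.0156; without it 2.49). Glis3, a zinc finger factor, stood at 21.7, 19.9 and 21.95 CPM in control and 100.4, 46.1 and 99.3 CPM in TAZ-CAMTA1, and Cd33, a sialic acid receptor of myeloid cells, at 0.134, 0.376 and 0.364 CPM in control and 2.12, 0.637 and 1.84 CPM in TAZ-CAMTA1. Their fold changes moved from 1.84 ± 0.31 to 2.21 and from 1.29 ± 0.34 to 1.66. Pkhd1l1 and the zinc transporter Slc39a10 moved from -1.71 ± 0.37 to -1.28 and from -1.34 ± 0.31 to -0.97.

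**Figure D5:**
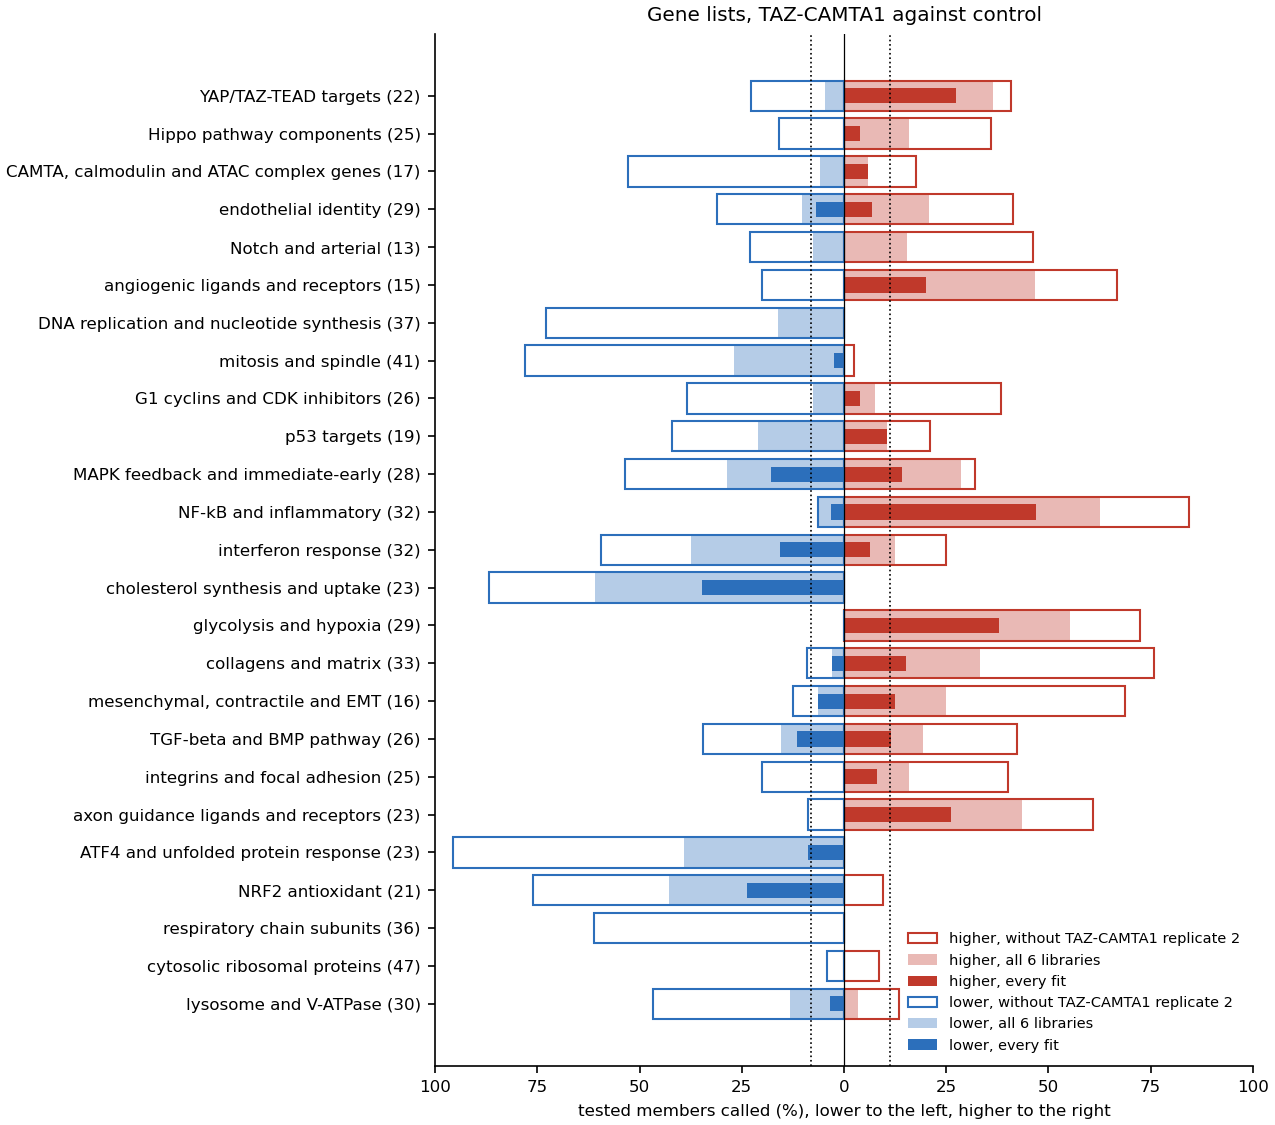
Share of the tested members of each list (number in parentheses) called higher (red, right) or lower (blue, left): outlined bars without TAZ-CAMTA1 replicate 2, pale bars with all 6 libraries, solid bars in every fit. Dotted lines mark the shares over all genes with all 6 libraries, 11.2% higher and 7.96% lower; outlined bars stand beside 25.0% and 28.9%. Inflammatory and glycolysis genes lean right and cholesterol, antioxidant and ATF4 genes lean left, while ribosomal and respiratory genes have no pale bars. The respiratory list has an outlined bar at 61.1% lower.

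The most abundant genes called in every fit, by CPM and so without regard to length, included structural and metabolic proteins. The 5 highest in CPM among those called higher were Cav1, Ccn1, Slc2a1, Rhob and Bcl6b. Cav1, the coat protein of caveolae, stood at 959, 937 and 977 CPM in control and 1739, 1489 and 1741 CPM in TAZ-CAMTA1 (log2 fold change 0.79 ± 0.10, limma adjusted p = 0.00403; without replicate 2 0.86). Rhob, a small GTPase of endosomes and stress responses, stood at 567, 578 and 533 CPM in control and 1055, 1459.6 and 1057 CPM in TAZ-CAMTA1, with replicate 2 highest (log2 fold change 1.07 ± 0.15, limma adjusted p = 0.00575; without it 0.92), and Bcl6b, a transcriptional repressor, changed by 0.66 ± 0.09 (0.69). The 5 highest in CPM among those called lower were Hspa5, Ehd4, Lrrc32, Prom1 and Cyb5b. Lrrc32, the surface anchor GARP for latent TGF-beta, stood at 662, 587 and 635 CPM in control and 369, 296 and 383 CPM in TAZ-CAMTA1 (log2 fold change -0.85 ± 0.13, limma adjusted p = 0.00734; without replicate 2 -0.74). Ehd4, an endocytic recycling protein, Prom1, the membrane protein CD133, and Cyb5b, an outer mitochondrial cytochrome b5, changed by -0.75 ± 0.10, -0.82 ± 0.11 and -0.83 ± 0.10, or -0.67, -0.73 and -0.77 without replicate 2.

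Some called genes lay side by side in the genome. Counting runs of at least 4 neighbouring tested protein-coding genes called in the same direction, a count made after values were seen and given as a description, there were 13 runs, 10 higher and 3 lower, and every gene in them was also called without replicate 2. On chromosome 5, from 90490737 to 90905938, the 6 tested genes Afp, Rassf6, Cxcl5, Pf4, Cxcl1 and Cxcl2 all rose and were called in every fit. On chromosome 16, from 91372783 to 91565623, the interferon and IL-10 receptor genes Ifnar2, Il10rb, Ifnar1 and Ifngr2 rose together, by 0.83 ± 0.14, 0.51 ± 0.12, 0.55 ± 0.13 and 0.64 ± 0.08, or 0.69, 0.61, 0.68 and 0.63 without replicate 2. Gm21970, which lies among them, was called too and may share their reads. On chromosome 6, from 124430759 to 124636085, the complement protease genes C1ra (0.52 ± 0.12; without replicate 2 0.50), C1s1 and C1s2 (1.87 ± 0.16; 1.83) rose with C1rl and Clstn3. On chromosome 3 the ephrin ligand genes Efna1, Efna3 (0.89 ± 0.16; without replicate 2 0.78) and Efna4 (0.87 ± 0.20; 0.66) rose with Adam15 and Zbtb7b. The run that fell on chromosome 19, from 34583531 to 34879455, held 4 Ifit genes and Pank1, and a run of 9 Ugt1a genes on chromosome 1 shares its last exons, so its members are not separate.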

How the data were processed

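RNA was extracted, DNase treated and made into stranded poly-A libraries for Illumina sequencing, per the labels' protocols. The submitters' processing notes name bcl2fastq, FastQC, STAR, featureCounts, edgeR and mm10. Their versions, their settings and any use of strand in counting are not given in the sources used here, and genes that overlap, in sense or antisense, could therefore share reads. The CPM values are a signal deposited by the authors: gene reads over a library size that they scaled. All values (100%) were whole multiples of 1 read within 0.01 reads, so reads could be recovered as counts for an alternative test, although the planned design had assumed plain CPM. Deposited TPM values served another alternative. From the authors' deposited table come the log2 differences and p-values adjusted to a false discovery rate. Deposited junction counts are unique and multiply mapped reads. Transcript tables were not used here.

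Symbols, exonic lengths and coordinates came from GENCODE vM21 (23439 of 23744 genes matched). Differences were tested with limma 3.58.1 (R 4.3.3, trend and robust options) on log2(CPM + 0.5) over genes with 0.5 CPM in 3 of 6 libraries, with Benjamini-Hochberg adjusted p under 0.05. TAZ4A was compared in a fit of 9 libraries. The members and lists (30 lists, 783 entries, 683 tested) were chosen with earlier results of these data known. Named genes were those of the constructs and TEADs, the 12 largest rises and falls called in every fit with at least 5 CPM, up to 3 such members per list and direction, the 3 calls per direction that moved most without TAZ-CAMTA1 replicate 2, and the 5 highest in CPM per direction called in every fit. Other names were chosen after their values were seen, and a few genes that the rule gives are not reported here. Alternatives were pseudocounts of 0.1 and 2, no filter, a 2 CPM minimum, equal library sums, quantile normalization, TPM, the iGenomes table (12098 genes tested), all 9 libraries, library quality weights, removal of a length trend, a replicate block, each library left out, and edgeR 4.0.16 and DESeq2 1.42.0 on recovered reads. The limma fits with all 6 libraries and without TAZ-CAMTA1 replicate 2, and edgeR and DESeq2 on 6 libraries, were also run on simulated data. That simulation held no library with a length bias, and the other tests were not simulated. Counting intervals are exact at 95% and cover counting error only. They pool reads over libraries and were taken for genes picked by those reads, so they test no difference.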

Additional observations from a re-analysis of the deposited data

How the results depend on the processing

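Leaving out 1 library moved the count of genes called between TAZ-CAMTA1 and control to 612 to 3251 higher and 236 to 3752 lower, the low ends without control replicates 2 and 3 and the high ends without TAZ-CAMTA1 replicate 2. Without that replicate edgeR called 3550 higher and 3379 lower and the iGenomes table, an alternative chosen after seeing the data, 3199 and 3619. Library quality weights, which gave replicate 2 a weight of 0.0508, called 3318 and 3758. Lower calls numbered 1987 with all 9 libraries and 1826 with the length trend removed. TAZ-CAMTA1 against TAZ4A gave 8044 calls without replicate 2. With a replicate block 1182 were higher and 669 lower. Same-numbered samples deviated together with correlations of -0.29, 0.48 and 0.19, so the numbers were not taken as pairs. On 6 libraries edgeR called 1558 higher and 863 lower and DESeq2 1942 and 1448. Over the named genes 2681 alternative values kept direction and call, 67 lost the call, 40 gained it and 18 turned sign.

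The turned signs were at 5 genes not called with all 6 libraries. Leaving out 1 library, Tead1 ranged from -0.38 to 0.16, Ccn2 from -0.0002 to 0.0418, Cdh5 from -0.19 to 0.17 and Kdr from -0.48 to 0.0224. Without TAZ-CAMTA1 replicate 2 edgeR gave Tead1 0.19, Cdh5 0.20 and Kdr 0.0498, and with iGenomes genes they were 0.16, 0.18 and 0.0458. Quality weights gave 0.15, 0.16 and 0.0119. Removal of the length trend gave Tead1 0.0224 and Ccn2 -0.0676, TPM gave Ccn2 -0.0148, quantile normalization gave Pecam1 -0.15 and edgeR gave Cdh5 0.0026. The cause was not tested. At 3 reads, 0.0867 to 0.134 CPM, lower levels could not be resolved.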
